A study of Homo sapiens with 60 samples.

Results

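The 10 genes described here are PLIN2, HILPDA, ANGPTL4, PDK4, CPT1A, SLC25A20, ACADVL and the receptors PPARA, PPARD and PPARG, taken by symbol from the 60675 genes of the deposited table. PLIN2 and ANGPTL4 were chosen by their measured counts in these libraries, a rise of PLIN2 with dose in every extract and a fall of ANGPTL4 in Coptidis Rhizoma alone. Their own values are therefore given as descriptions, without a test, in every comparison. All 10 genes passed the filter on low counts, as did 17680 genes in all.

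Peroxisome proliferator-activated receptors (PPARs) are nuclear receptors that bind fatty acids and, paired with a retinoid X receptor, switch on genes of fatty acid handling. PPARA is best known for fatty acid oxidation, PPARD for oxidation and fuel choice in many tissues, and PPARG for fat storage. PLIN2 coats lipid droplets, HILPDA inhibits the droplet lipase ATGL, ANGPTL4 is a secreted inhibitor of lipoprotein lipase, and PDK4 turns off pyruvate dehydrogenase. CPT1A and SLC25A20 serve the entry of long-chain fatty acids into mitochondria, where ACADVL performs the first step of their oxidation. Several of these genes also answer to other signals: ANGPTL4 and HILPDA to low oxygen, and ANGPTL4 and PDK4 to glucocorticoids.

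The cells were SW1783, an established human astrocytoma line, exposed for 24 h to DMSO vehicle or to ethanol extracts of herbs and herbal formulas, and gene expression was measured by RNA sequencing. The vehicle group (3 libraries) held 0.1% DMSO per the sample labels, while the series text gives another concentration. Each extract is called by the first word of its label. Coptidis was given at 14, 2.8 and 0.56 µg/mL (2 libraries a dose), and Zizyphi at 500, 100 and 20 µg/mL (2 libraries a dose). Citri and Cimicifugae were given at 500, 100 and 20 µg/mL (3 libraries a dose). Bupleuri was given at 210, 42 and 8.4 µg/mL (3 libraries a dose), and Aconiti at 500, 100 and 20 µg/mL (2, 3 and 3 libraries). The formula Yijung-tang was given at 500, 100 and 20 µg/mL (2, 2 and 1 libraries), and the formula Banhasasim-tang at the same doses with 1 library each. Where the top dose lay below 500 µg/mL, the series text says that it was set by loss of viability, so the high doses of Coptidis and Bupleuri were set on a different basis from the others.

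Libraries 1 of Aconiti at 500 µg/mL and of Yijung-tang at 20 µg/mL diverged from their replicates and were left out, and values with both kept are given in the closing part. The 58 libraries kept held 15996157 to 30990264 counts, so the scarcest gene, PDK4, still had at least 12 counts in every library. No vehicle library carries the set numbers that the extract libraries have in their names, so a difference between vehicle and extract cannot be told apart from a difference between sets. Comparisons between doses of an extract stay within a set. Whether replicates came from separate cultures is not given, so each p-value reflects the spread between the libraries at hand, which may be technical. In bulk RNA, fewer cells of a kind and less RNA per cell cannot be told apart.

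Promoters are shown for the 2 genes whose patterns chose the set and for PPARG, the receptor with the largest dose change, so that their sequence can be read beside their values. Each is 250 bases before to 50 after a transcription start in RefSeq (GRCh38.p14), read 5′ to 3′ on the gene's strand. Capitals mark AGGTCA or its complement TGACCT, the half-site of nuclear receptors, and CACGTG, an E-box bound by basic helix-loop-helix factors such as MITF and TFEB. The E-box was added after the sequences and values had been seen.
PLIN2, chr9:19127443-19127742, minus strand: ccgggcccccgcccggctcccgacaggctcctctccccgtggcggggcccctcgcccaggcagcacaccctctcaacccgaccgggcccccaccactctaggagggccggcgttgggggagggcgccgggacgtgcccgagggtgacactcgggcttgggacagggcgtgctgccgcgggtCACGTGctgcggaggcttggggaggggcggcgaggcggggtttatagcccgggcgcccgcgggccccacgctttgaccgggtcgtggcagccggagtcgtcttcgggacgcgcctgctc
ANGPTL4, chr19:8363905-8364204, plus strand: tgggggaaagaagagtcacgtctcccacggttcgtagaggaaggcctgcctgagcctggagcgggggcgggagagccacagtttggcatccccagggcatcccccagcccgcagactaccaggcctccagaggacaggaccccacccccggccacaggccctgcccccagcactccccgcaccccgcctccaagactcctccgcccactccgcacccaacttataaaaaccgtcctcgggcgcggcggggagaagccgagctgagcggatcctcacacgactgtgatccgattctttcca
PPARG, chr3:12288810-12289109, plus strand: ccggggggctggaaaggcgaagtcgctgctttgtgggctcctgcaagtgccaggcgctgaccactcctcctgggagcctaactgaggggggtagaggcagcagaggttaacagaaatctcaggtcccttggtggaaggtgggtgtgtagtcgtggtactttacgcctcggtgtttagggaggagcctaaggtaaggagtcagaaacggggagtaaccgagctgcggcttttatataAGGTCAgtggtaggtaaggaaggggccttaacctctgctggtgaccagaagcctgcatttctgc
PLIN2 held 1 E-box, ANGPTL4 held neither motif, and the PPARG window held 1 half-site. RefSeq windows were found for 9 of the 10 genes, 16 windows in all, and the half-site, searched on both strands, stood in 3 of them, all of PPARG, of which 2 overlap and hold the same copy. PPARG had the most windows of these genes, and its other windows held no half-site. Among 35116 promoter windows of the same 300 bases, 13.8% held the half-site and 7.26% the E-box. The full PPAR element AGGTCANAGGTCA, searched on both strands and containing the half-site, stood in 0.0228% of all windows and in 0 of the 16. A match describes letters in a window and is not a binding site.

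Levels below are CPM, counts scaled to a common library size. Per kilobase of exon, the vehicle means ran from ACADVL (57.6 CPM per kb) and PPARD (23.7) through PLIN2 (13.8), SLC25A20 (9.39), CPT1A (8.53), ANGPTL4 (6.91), HILPDA (4.67), PPARG (4.24) and PPARA (3.01) to PDK4 (0.291). PPARD was thus the most abundant of the 3 receptor transcripts on this scale. A gene is called higher or lower where edgeR's quasi-likelihood test gave a Benjamini-Hochberg adjusted p under 0.05 over all 17680 genes, and changes are log2 fold changes ± SE.

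PLIN2 (ENSG00000147872, chr9:19108375-19149290, minus strand) stood at 74.0, 67.6 and 69.0 CPM in the 3 vehicle libraries. In Bupleuri it was 69.6, 66.7 and 68.2 CPM at 8.4 µg/mL, 78.2, 80.7 and 79.3 CPM at 42 µg/mL, and 341, 331 and 336 CPM at 210 µg/mL. In Coptidis it was 67.4 and 66.4 CPM at 0.56 µg/mL, 86.1 and 83.2 CPM at 2.8 µg/mL, and 291 and 282 CPM at 14 µg/mL. In both extracts the 3 doses did not overlap, which is part of the pattern that chose PLIN2. Most of the difference lay in the last step of dose. From low to high dose PLIN2 differed by 2.30 ± 0.04 in Bupleuri, 4.94-fold, and by 2.10 ± 0.05 in Coptidis, 4.30-fold.

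The 4 other extracts of single herbs moved PLIN2 far less. In Cimicifugae it went from 65.3, 65.3 and 65.4 CPM at 20 µg/mL to 90.1, 84.4 and 93.9 CPM at 500 µg/mL. Aconiti went from 67.6, 59.9 and 64.4 CPM to 88.1 and 87.5 CPM. Citri went from 62.8, 59.7 and 64.5 CPM to 72.6, 76.1 and 78.9 CPM, and Zizyphi from 60.6 and 61.7 CPM to 66.9 and 71.7 CPM. The changes were 0.45 ± 0.04, 0.46 ± 0.05, 0.28 ± 0.04 and 0.19 ± 0.05 in that order. The high-dose libraries stood above every low-dose library in each of the 4. PLIN2 was chosen for its rise with dose, so this separation only describes the choice. The low-dose means of all 6 extracts lay below vehicle, by 0.04 to 0.20. Of the 2 high-dose Zizyphi libraries, 1 lay inside the vehicle range and 1 just under it.

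**Figure D1:**
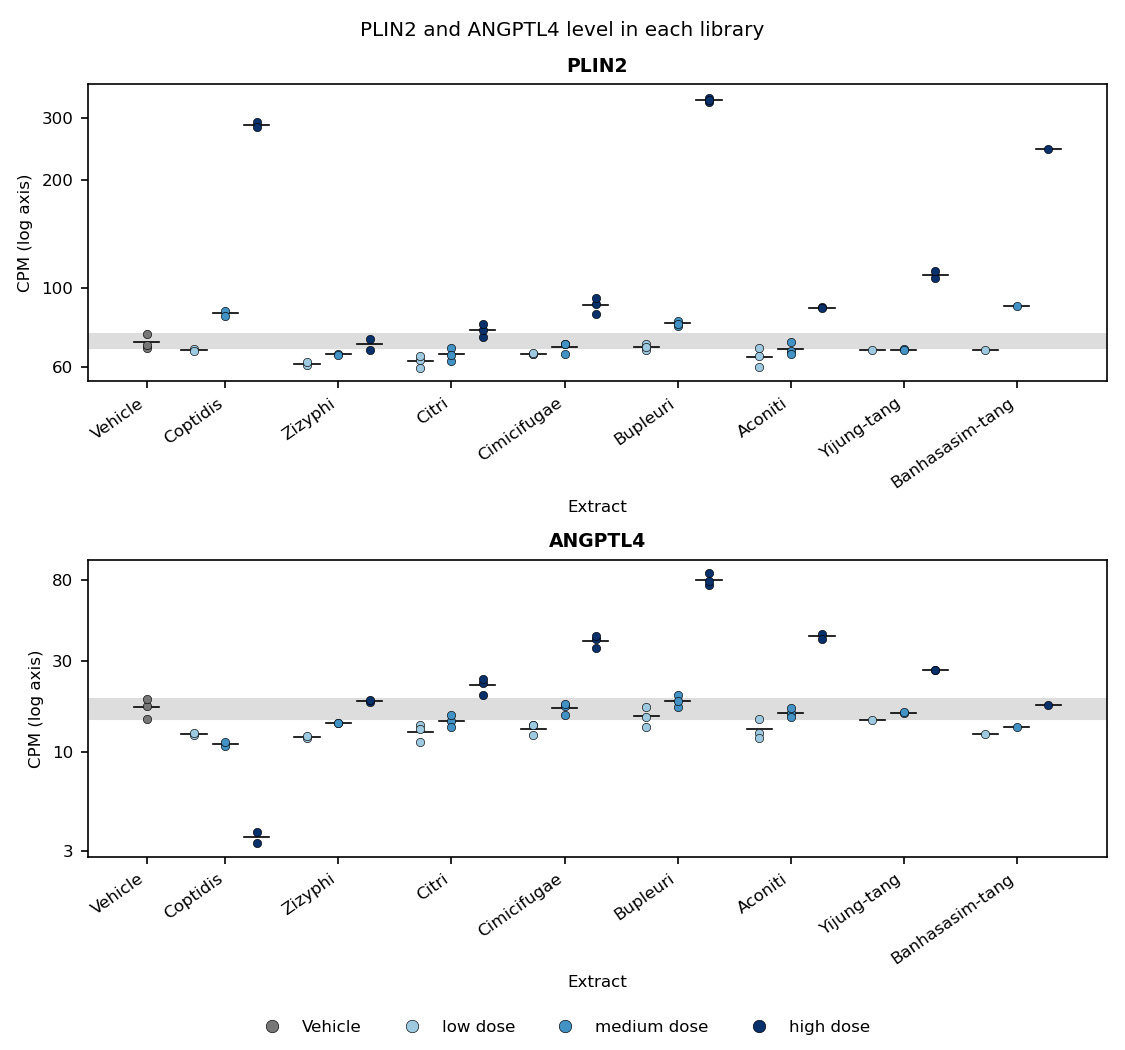
PLIN2 and ANGPTL4 in each of the 58 libraries kept, as CPM on a log axis, with groups along the x axis and the low, medium and high dose side by side. Points are libraries, short lines are group means and the grey band is the range of the 3 vehicle libraries. PLIN2 at high dose is at least 282 CPM in Coptidis and Bupleuri, and ANGPTL4 is at most 3.80 CPM in high-dose Coptidis.

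ANGPTL4 (ENSG00000167772, chr19:8363289-8374373, plus strand) stood at 17.4, 15.0 and 19.0 CPM in vehicle. In Coptidis it was 12.2 and 12.6 CPM at low dose, 10.8 and 11.3 CPM at medium and 3.32 and 3.80 CPM at high dose. In Bupleuri it was 15.3, 13.5 and 17.3 CPM at low dose, 20.0, 17.2 and 18.6 CPM at medium and 86.8, 75.7 and 79.0 CPM at high dose. The 2 extracts that raised PLIN2 most thus sat at opposite ends for ANGPTL4. From low to high dose it was lower by 1.80 ± 0.16 on the log2 scale in Coptidis, 3.48-fold, and higher by 2.38 ± 0.08 in Bupleuri, 5.22-fold.

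In the remaining extracts ANGPTL4 was higher at the high dose. Aconiti went from 15.0, 12.6 and 11.8 CPM to 41.8 and 39.3 CPM (1.64 ± 0.09). Cimicifugae went from 13.8, 12.3 and 13.8 CPM to 39.3, 35.3 and 40.7 CPM (1.53 ± 0.08). Citri went from 11.3, 13.9 and 13.2 CPM to 23.1, 19.9 and 24.1 CPM (0.81 ± 0.09), and Zizyphi from 11.9 and 12.1 CPM to 18.3 and 18.7 CPM (0.63 ± 0.11). In each of the 4 the high-dose libraries stood above all low-dose ones, a description of values that chose the gene. The low-dose means of all 6 extracts lay below vehicle, by 0.14 to 0.51. Both high-dose Zizyphi libraries lay inside the vehicle range. An antisense gene, RAB11B-AS1, shares 1 exon base with ANGPTL4, and its vehicle level was 0.864 CPM.

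HILPDA (ENSG00000135245, chr7:128455849-128458418, plus strand), the inhibitor of the droplet lipase, changed less between low and high dose than PLIN2 or ANGPTL4 in each of the 6 extracts, and its lowest group mean was that of high-dose Coptidis. It stood at 9.54, 9.55 and 9.92 CPM in vehicle, 9.29 and 10.1 CPM in low-dose Coptidis and 6.48 and 7.11 CPM in high-dose Coptidis, a fall of 0.51 ± 0.14 between the doses (edgeR adjusted p = 0.001202). Its high-dose Bupleuri libraries held 10.4, 10.9 and 12.1 CPM, and the difference from low dose was 0.18 ± 0.10 (edgeR adjusted p = 0.1573). A pair of processed transcripts on the same strand shares 175 and 186 exon bases with HILPDA, at 0.261 and 0.0506 CPM in vehicle.

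PDK4 (ENSG00000004799, chr7:95583499-95596491, minus strand) was the scarcest of the genes, at 1.37, 1.51 and 1.05 CPM in vehicle. Its 2 high-dose Coptidis libraries held 0.663 and 0.661 CPM against 1.39 and 1.48 CPM at low dose, a fall of 1.10 ± 0.34 (edgeR adjusted p = 0.004529, and 0.06683 with both divergent libraries kept). High-dose Aconiti held 4.57 and 5.04 CPM, and high-dose Citri held 4.06, 4.33 and 4.64 CPM. The group means, 4.80 and 4.34 CPM, were the highest of the high-dose groups, and the changes from low dose were 1.43 ± 0.20 (edgeR adjusted p = 7.121e-07) and 1.51 ± 0.19 (edgeR adjusted p = 8.368e-08). Bupleuri and Cimicifugae rose by 1.27 ± 0.19 and 0.95 ± 0.19 (edgeR adjusted p = 5.055e-07 and 0.0003742), and in Zizyphi the difference was 0.64 ± 0.25 (edgeR adjusted p = 0.1045). The Cimicifugae rise was not called with both divergent libraries kept (edgeR adjusted p = 0.2116). In Citri the log2 change of PDK4 (1.51) stood beside smaller values for ANGPTL4 (0.81) and PLIN2 (0.28).

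CPT1A (ENSG00000110090, chr11:68754620-68844410, minus strand), the outer membrane enzyme of the entry route, stood at 55.8, 55.8 and 56.4 CPM in vehicle. It held 80.8, 80.9 and 84.4 CPM in high-dose Bupleuri against 47.6, 50.7 and 46.5 CPM at low dose, a rise of 0.77 ± 0.05 (edgeR adjusted p = 1.036e-18). In Coptidis it rose from 48.8 and 51.6 to 66.8 and 64.6 CPM, by 0.39 ± 0.06 (edgeR adjusted p = 7.796e-08). Smaller rises were called in Cimicifugae (0.21 ± 0.05, edgeR adjusted p = 0.002072) and Aconiti (0.27 ± 0.05, edgeR adjusted p = 0.0001576). These went from low-dose means of 49.3 and 47.3 CPM to 56.9 and 57.2 CPM, near the vehicle mean of 56.0 CPM. With both divergent libraries kept, the Cimicifugae rise was not called (edgeR adjusted p = 0.1856).

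SLC25A20 (ENSG00000178537, chr3:48856931-48898993, minus strand), the inner membrane carrier of the same route, fell in Coptidis. It stood at 17.6, 18.1 and 20.1 CPM in vehicle and, in Coptidis, at 18.2 and 17.1 CPM at low dose, 14.3 and 14.0 CPM at medium and 5.77 and 6.94 CPM at high dose. The fall at medium dose, 0.32 ± 0.08 (edgeR adjusted p = 0.002839), was not called without low-dose replicate 2 (0.07218) or with both divergent libraries kept (0.05896). The fall was 1.47 ± 0.09 at high dose (edgeR adjusted p = 2.699e-18). In Bupleuri the difference from low to high dose was -0.01 ± 0.06. So within Coptidis the 2 genes of the entry route moved in opposite directions, and in Bupleuri CPT1A rose with no call for SLC25A20.

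ACADVL (ENSG00000072778, chr17:7217125-7225273, plus strand), the first enzyme of the oxidation cycle, stood at 274, 276 and 290 CPM in vehicle. In Coptidis it held 333 and 334 CPM at low dose and 444 and 447 CPM at high dose. From low to high dose it rose by 0.42 ± 0.04 in Coptidis (edgeR adjusted p = 3.504e-12), 0.18 ± 0.03 in Cimicifugae (edgeR adjusted p = 0.0001619) and 0.13 ± 0.03 in Citri (edgeR adjusted p = 0.007144). With both divergent libraries kept, ACADVL was called neither in Cimicifugae (0.19 ± 0.11, edgeR adjusted p = 0.9516) nor in Citri (0.13 ± 0.11). DLG4, on the opposite strand, shares 85 exon bases with it.

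PPARG (ENSG00000132170, chr3:12287368-12434356, plus strand) stood at 19.0, 18.7 and 20.0 CPM in vehicle. In Coptidis it was 24.1 and 22.4 CPM at low dose, 32.4 and 28.6 CPM at medium and 53.3 and 50.4 CPM at high dose. The 3 doses did not overlap, and it rose by 0.39 ± 0.06 at medium dose (edgeR adjusted p = 7.244e-06) and by 1.16 ± 0.06 at high dose (edgeR adjusted p = 4.255e-21). In high-dose Bupleuri it was 30.4, 30.7 and 30.1 CPM, a rise of 0.50 ± 0.05 (edgeR adjusted p = 3.594e-11). Citri went the other way by a small margin, -0.17 ± 0.05 (edgeR adjusted p = 0.02954), a call that several alternative settings did not give.

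PPARA (ENSG00000186951, chr22:46150521-46243756, plus strand) stood at 41.1, 37.6 and 40.6 CPM in vehicle and between 45.4 and 52.9 CPM in the high-dose libraries of Coptidis, Citri, Cimicifugae, Bupleuri and Aconiti. It was called higher at high than low dose in 5 of the 6 extracts, by 0.24 to 0.40, the exception being Zizyphi at 0.03. The largest of the 5 was in Bupleuri (0.40 ± 0.05, edgeR adjusted p = 4.704e-08). With both divergent libraries kept, PPARA was not called in Citri, Cimicifugae or Aconiti (edgeR adjusted p = 0.5375, 0.3005 and 0.1066). PPARD (ENSG00000112033, chr6:35342558-35428191, plus strand) stood at 104, 107 and 106 CPM in vehicle, and its changes from low to high dose spanned -0.14 to 0.11. Its single dose call was a fall of 0.14 ± 0.06 in Coptidis (edgeR adjusted p = 0.02102), which DESeq2 did not give.

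**Figure D2:**
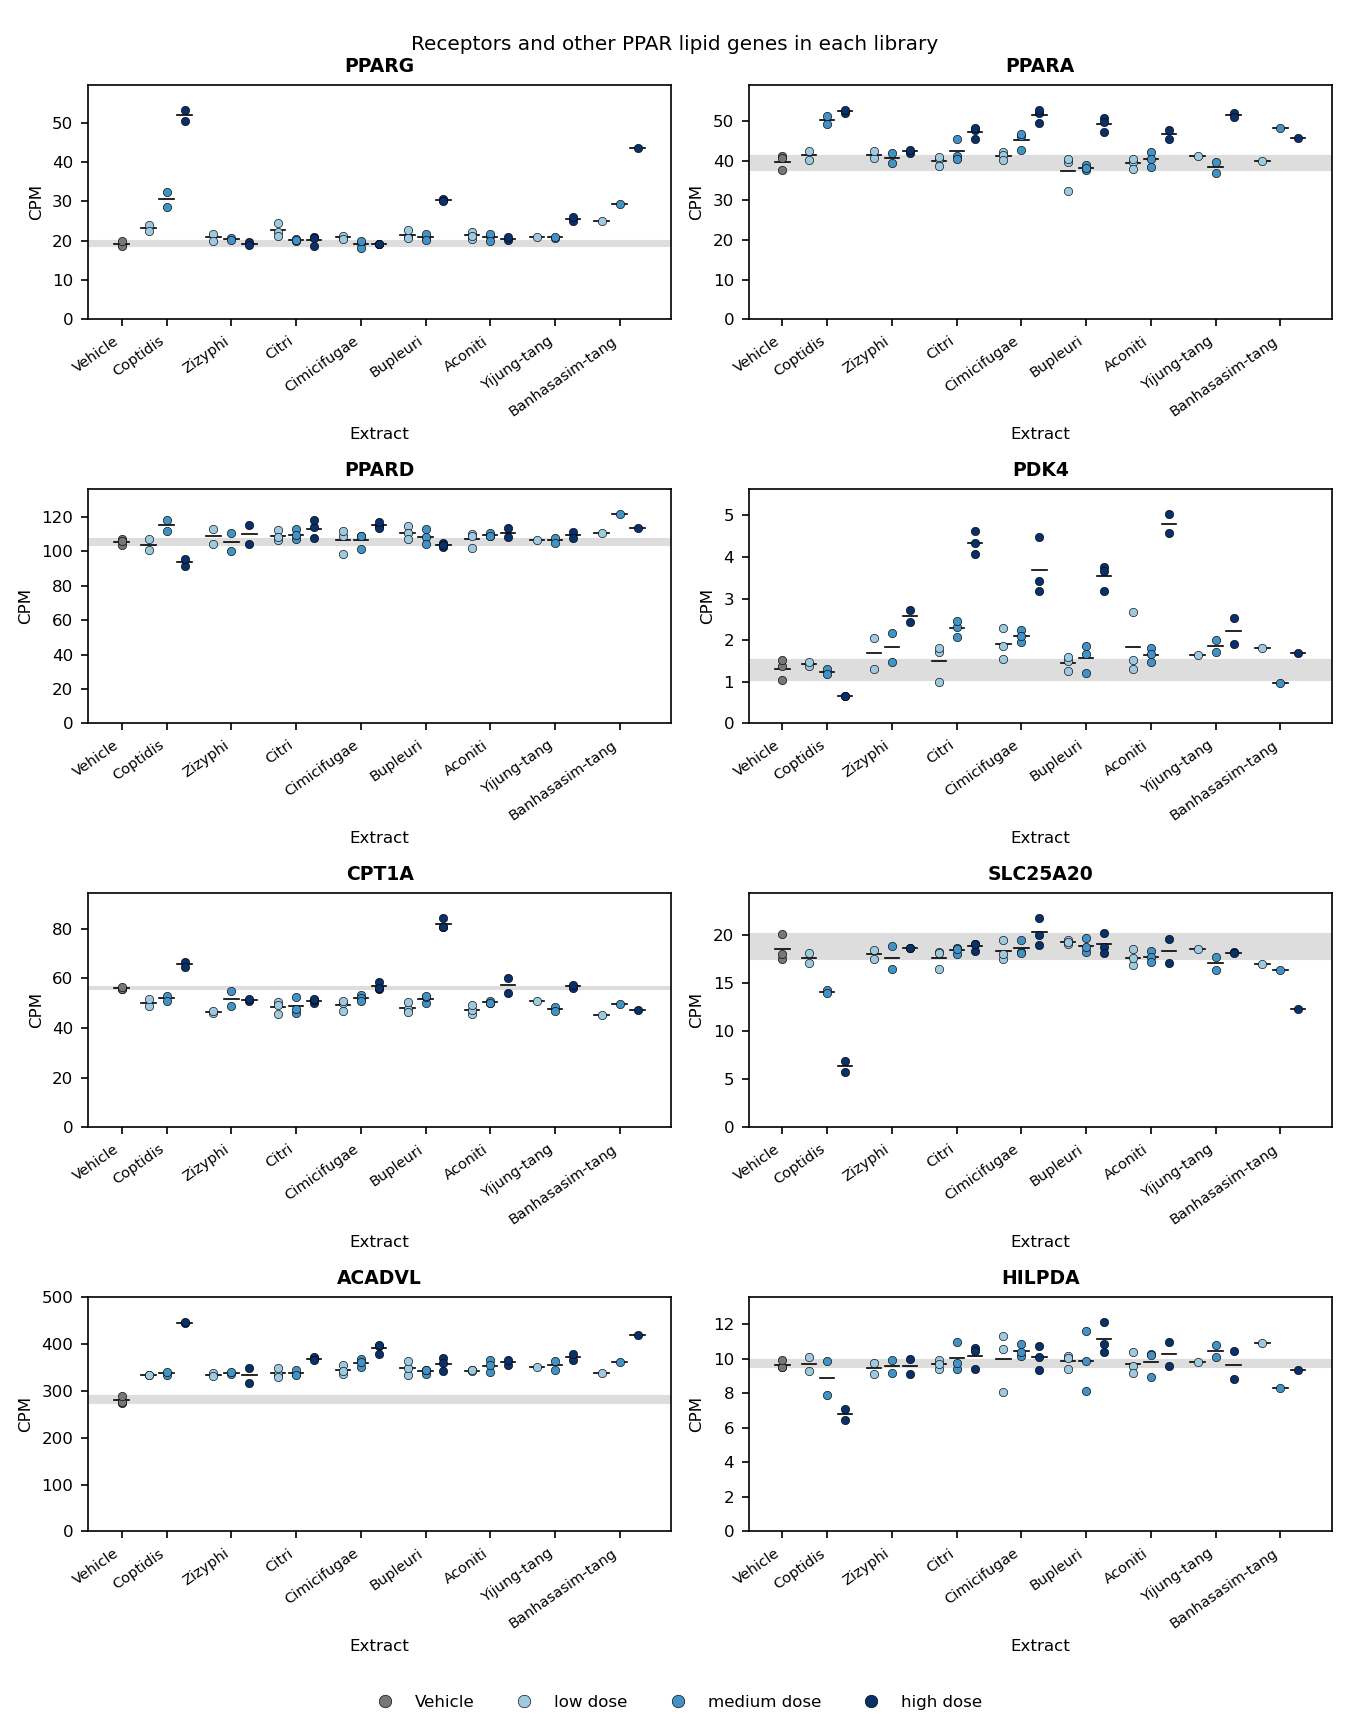
The 8 other genes in each of the 58 libraries kept, as CPM on axes that start at 0, with the low, medium and high dose of each extract side by side. Points are libraries, lines are group means and grey bands are the range of the 3 vehicle libraries. PPARG rises and SLC25A20 falls with each dose step of Coptidis, and ACADVL lies above the vehicle band in every extract library.

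Of the 8 genes tested, 8 were called between high and low dose of Coptidis, where 65.6% of all tested genes were called. Of these, 4 were higher and 4 lower, beside 33.2% and 32.4% of all tested genes. With a background that high, the sizes describe the genes better than the count. In Bupleuri 4 of 8 were called (39.2% of all tested genes), all of them higher (20.6%). In Cimicifugae 4 of 8 were called (10.7%), all higher (4.88%). In Citri 4 of 8 were called (13.8%), 3 higher (6.44%) and 1 lower (7.34%). In Aconiti 3 of 8 were called (9.53%), all higher (4.28%), and in Zizyphi 0 of 8 (7.40%). Between medium and low dose, Coptidis gave 3 of 8 (13.6%), and 1 of 8 with both divergent libraries kept. The other 5 extracts gave 0 of 8 at this step, where 0.00566% of all tested genes were called in Zizyphi and in Citri, 0.385% in Cimicifugae, 0.368% in Bupleuri and 0.0509% in Aconiti.

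**Figure D3:**
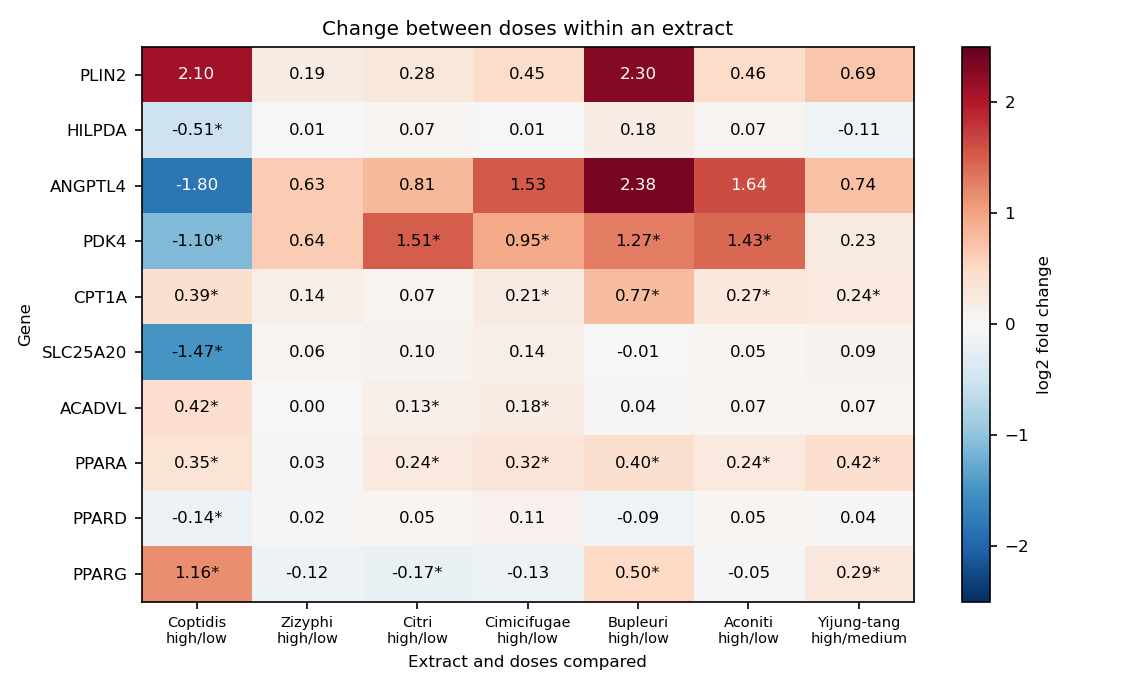
Log2 fold change of the 10 genes (rows) between doses in 6 extracts and Yijung-tang (columns), with red for higher and blue for lower at the higher dose. An asterisk marks an edgeR adjusted p under 0.05 for the 8 genes tested, and PLIN2 and ANGPTL4 carry none because they were not tested. PLIN2 is 2.10 in Coptidis and 2.30 in Bupleuri, while ANGPTL4 is -1.80 and 2.38.

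Citri and Cimicifugae were given at the same doses in the same set, with 3 libraries a dose, so their levels could be compared directly. At 500 µg/mL PLIN2, not tested, was lower in Citri than in Cimicifugae, at -0.24 ± 0.04, and ANGPTL4, not tested either, was -0.77 ± 0.08. The libraries of the 2 groups did not overlap for either gene, a description, since both genes were chosen by their values over these groups. CPT1A was called lower in Citri (-0.16 ± 0.05, edgeR adjusted p = 0.03142, and up to 0.8039 under alternative settings) and was the 1 gene called of 8 tested (6.67% of all tested genes). At 100 and 20 µg/mL the PLIN2 difference was -0.07 ± 0.04 at both doses, and 0 of 8 genes were called (3.52% and 0.277%).

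The change from low to high dose was also compared between the 2 extracts of each set, through an interaction term. PPARG changed more in Coptidis than in Zizyphi by 1.29 ± 0.09 and more in Bupleuri than in Aconiti by 0.56 ± 0.08 (edgeR adjusted p = 3.071e-16 and 3.619e-07). SLC25A20 changed by -1.54 ± 0.12 in Coptidis relative to Zizyphi (edgeR adjusted p = 6.83e-15). CPT1A changed more in Bupleuri than in Aconiti by 0.50 ± 0.07 (edgeR adjusted p = 1.8e-07). In all, 7 of 8 genes tested differed between Coptidis and Zizyphi (55.3% of all tested genes), 2 of 8 between Bupleuri and Aconiti (23.4%) and 0 of 8 between Citri and Cimicifugae (1.07%). The differences for PLIN2, described without a test, were 1.92 ± 0.07, 1.85 ± 0.06 and -0.17 ± 0.06 in that order. The doses in µg/mL match only in the last pair.

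Against vehicle, ACADVL was called in the most groups. It was called higher in 20 of 20 extract and dose groups, by 0.25 to 0.68, and its 6 low-dose groups lay within a narrow band of 0.26 to 0.31, although their doses ran from 0.56 to 20 µg/mL. CPT1A was called lower in 9 of the 20 groups and higher in 2, and 5 of the 6 low-dose groups were among the 9. PDK4 was called higher in 8 groups and lower in high-dose Coptidis, PPARA higher in 8 and PPARG higher in 7. With both divergent libraries kept, 6 of the 20 ACADVL calls held and 14 did not, with changes from 0.25 to 0.67 over the 20 groups. These groups share their 3 vehicle libraries, and the sets differ from vehicle as stated above.

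Set beside all tested genes, the counts against vehicle were as follows. At low dose 2 of 8 genes were called in Coptidis (7.32% of all tested genes), Zizyphi (11.8%), Cimicifugae (20.8%) and Aconiti (20.0%), and 3 of 8 in Citri (16.1%) and Bupleuri (26.9%). At medium dose 5 were called in Coptidis (25.9%), 1 in Zizyphi (13.7%), 3 in Citri (17.9%), 3 in Cimicifugae (31.8%), 1 in Bupleuri (22.7%), 2 in Aconiti (26.2%) and 2 in Yijung-tang (15.3%). At high dose 8 were called in Coptidis (66.6%), 2 in Zizyphi (21.6%), 4 in Citri (31.5%), 4 in Cimicifugae (35.7%), 5 in Bupleuri (39.6%), 3 in Aconiti (27.6%) and 4 in Yijung-tang (30.8%). With only 8 genes, none of these counts is read as setting them apart from the rest.

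**Figure D4:**
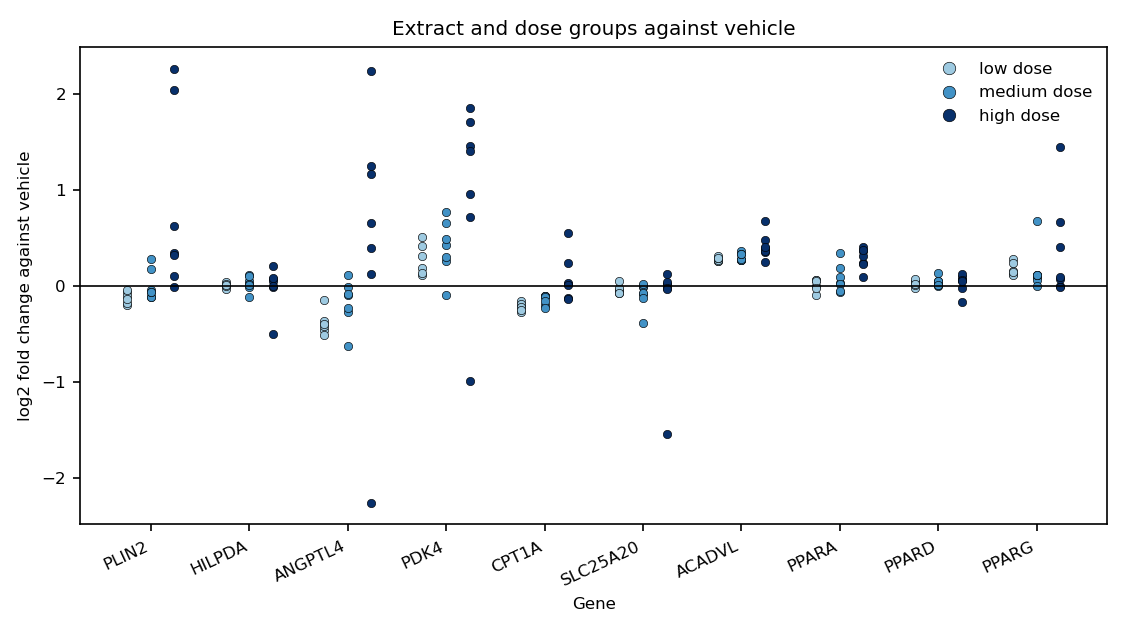
Log2 fold change against vehicle for the 20 tested extract and dose groups, with genes along the x axis and points coloured by dose. All 20 ACADVL points lie above 0, low-dose PLIN2 and ANGPTL4 points lie below 0, and the high-dose ANGPTL4 points run from -2.25 to 2.24.

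The 2 formulas gave fewer libraries. In Yijung-tang PLIN2 was 66.9 CPM at 20 µg/mL, 67.2 and 67.0 CPM at 100 µg/mL and 106 and 111 CPM at 500 µg/mL (0.69 ± 0.05 between the last 2). ANGPTL4 went from 16.0 and 16.2 CPM to 26.8 and 27.1 CPM over the same step. CPT1A rose by 0.24 ± 0.06, PPARA by 0.42 ± 0.07 and PPARG by 0.29 ± 0.06 (edgeR adjusted p = 0.00267, 9.976e-06 and 0.001572), 3 of 8 genes tested beside 9.16% of all tested genes, and all higher beside 4.11%. Banhasasim-tang, with 1 library a dose, has no replicate check and no test. Its PLIN2 went from 67.0 to 88.8 to 245 CPM and its PPARG from 25.1 to 29.2 to 43.6 CPM, while ANGPTL4 went from 12.4 to 13.6 to 17.6 CPM.

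The genes around this route were read from lists by function, chosen as were the 10 genes with earlier results of these data known. Their counts are descriptions beside the shares of all tested genes above. For Bupleuri those shares are 39.2% called in either direction and 20.6% higher. For Coptidis they are 65.6% in either direction, 33.2% higher and 32.4% lower. No list count was tested against these shares. In Coptidis, 11 of 16 other mitochondrial beta-oxidation genes fell and 3 rose between low and high dose, with a median of -0.33 against -0.02 over all tested genes. CPT1C, a brain form of the carnitine palmitoyltransferase, fell by 1.19 ± 0.07 (edgeR adjusted p = 1.814e-18). HADHB, a subunit of the trifunctional protein that follows ACADVL, rose by 0.34 ± 0.05 (edgeR adjusted p = 3.298e-07). In Bupleuri 2 of the 16 rose and 3 fell.

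Of 10 genes that make triglyceride, the droplet's core, 7 fell and 3 rose in Coptidis, and 1 fell, 4 rose and 5 were not called in Bupleuri, and the difference between these counts was not tested. Of all tested genes, 65.6% were called in Coptidis and 39.2% in Bupleuri. GPAM, which begins glycerolipid synthesis at the mitochondrion, fell by 0.88 ± 0.07 in Coptidis and rose by 0.24 ± 0.05 in Bupleuri (edgeR adjusted p = 4.314e-15 and 0.0002097). GPAT3, which does so at the endoplasmic reticulum, fell by 0.41 ± 0.06 and rose by 0.62 ± 0.04 (edgeR adjusted p = 2.703e-08 and 3.071e-16). ACSL5, which activates fatty acids and belongs to the list of uptake and activation, fell by 1.10 ± 0.10 and rose by 0.49 ± 0.07 (edgeR adjusted p = 1.145e-12 and 4.698e-08).

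Among other droplet and lipolysis genes 4 of 11 rose and 3 fell in Coptidis (65.6% of all tested genes called in either direction), and 4 rose and 4 fell in Bupleuri (39.2%). ABHD5, the activator of the droplet lipase PNPLA2, rose by 0.42 ± 0.06 and 0.56 ± 0.05 (edgeR adjusted p = 2.805e-07 and 1.859e-12). MGLL, the monoacylglycerol lipase, rose by 0.91 ± 0.08 and 0.56 ± 0.07 (edgeR adjusted p = 6.721e-13 and 5.522e-09). Of the fatty acid synthesis list 7 of 8 fell and 1 rose in Bupleuri, where 39.2% of all tested genes were called in either direction. In Citri 6 of 8 fell, beside 7.34% of all tested genes called lower. SREBF1, the main regulator of that route, fell by 0.78 ± 0.07 in Bupleuri and rose by 0.32 ± 0.08 in Coptidis (edgeR adjusted p = 1.865e-13 and 0.0003837).

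**Figure D5:**
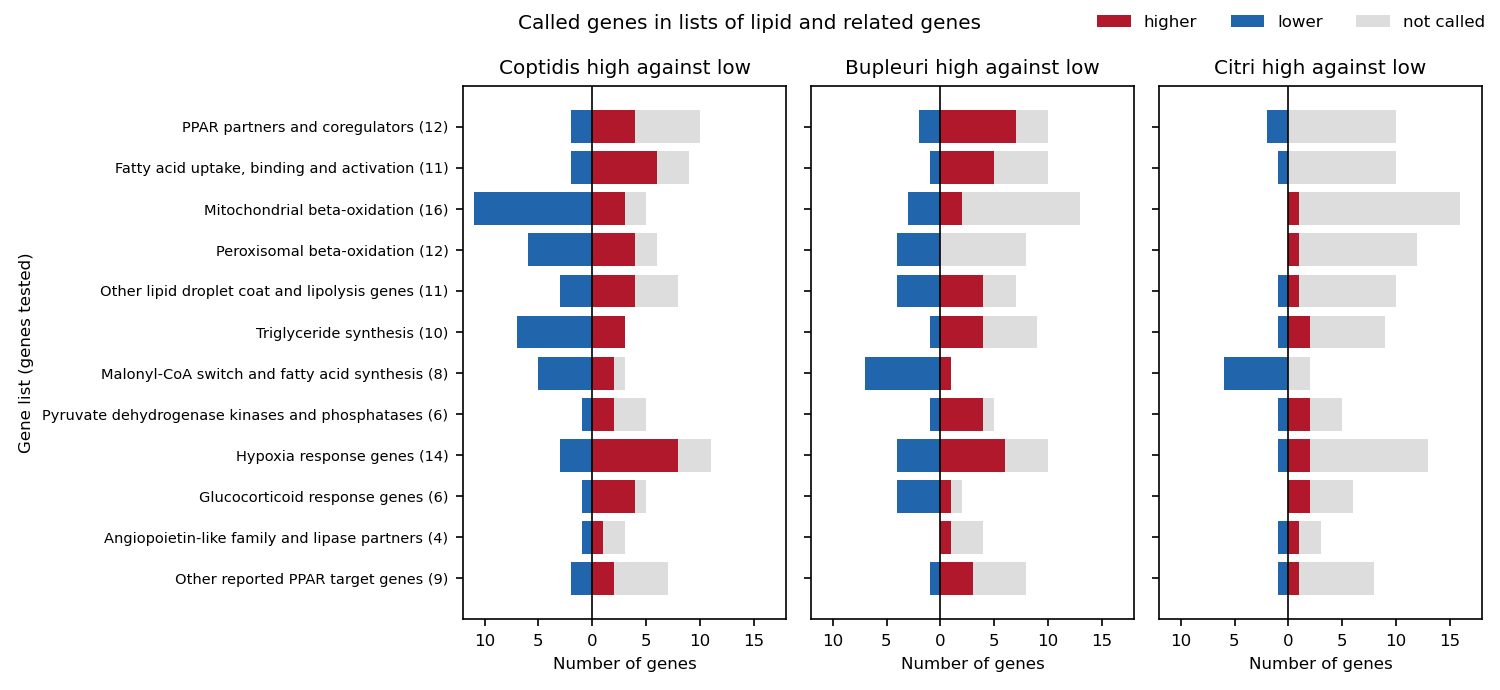
Number of genes called higher (red), lower (blue) or not called (grey) between high and low dose in 12 gene lists, with the number tested in brackets, for Coptidis, Bupleuri and Citri. In Coptidis 11 of 16 mitochondrial beta-oxidation genes are lower (32.4% of all tested genes). In Bupleuri 7 of 8 genes of the fatty acid synthesis list are lower (39.2% of all tested genes called in either direction).

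Partners and other signals of these genes were read in the same way. Of 12 PPAR partners and coregulators, 7 rose and 2 fell in Bupleuri, where 20.6% of all tested genes were called higher. In Coptidis 4 rose and 2 fell, beside 33.2% of all tested genes called higher and 32.4% lower. PPARGC1A, a coactivator that drives mitochondrial genes, rose from a mean of 2.84 to 8.56 CPM in Bupleuri (1.59 ± 0.13, edgeR adjusted p = 1.191e-13) and was 0.28 ± 0.19 in Coptidis (edgeR adjusted p = 0.1859). PPARGC1A fell in Zizyphi and Cimicifugae, by 1.31 ± 0.21 and 0.61 ± 0.15 (edgeR adjusted p = 5.175e-05 and 0.005063), and was not called in Citri or Aconiti. RXRA, a retinoid X receptor, was called in 5 of the 6 extracts, lower in each. Its changes were -0.22 ± 0.05 in Coptidis and -0.09 ± 0.04 in Bupleuri (edgeR adjusted p = 7.081e-05 and 0.04961). Of 14 hypoxia response genes 8 rose and 3 fell in Coptidis (65.6% of all tested genes called in either direction), and 6 rose and 4 fell in Bupleuri (39.2%). NDRG1, a stress-induced gene of that list, rose from 35.3 to 345 CPM in Coptidis (3.29 ± 0.06, edgeR adjusted p = 1.096e-38). Any relation of these genes to the ANGPTL4 values was not tested. Of 6 glucocorticoid response genes 4 rose and 1 fell in Coptidis (65.6% of all tested genes called in either direction). In Bupleuri 1 rose and 4 fell (39.2%). The clock gene PER1 was at 2.20 ± 0.06 in Coptidis and -0.27 ± 0.06 in Bupleuri (edgeR adjusted p = 2.809e-30 and 0.0002337).

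The remaining lists showed mixed directions. Beside their counts, 65.6% of all tested genes were called in Coptidis and 39.2% in Bupleuri, in either direction. Of 12 peroxisomal genes 4 rose and 6 fell in Coptidis, and 0 rose and 4 fell in Bupleuri. Of 11 genes of fatty acid uptake, binding and activation 6 rose and 2 fell in Coptidis, and 5 rose and 1 fell in Bupleuri. The other kinases and phosphatases of pyruvate dehydrogenase, the enzyme PDK4 turns off, gave 2 of 6 higher and 1 lower in Coptidis and 4 higher and 1 lower in Bupleuri. PDP1, a phosphatase that turns the enzyme back on, rose by 0.79 ± 0.03 in Bupleuri (edgeR adjusted p = 1.777e-23). Of 4 angiopoietin-like and lipase partner genes 1 rose and 1 fell in Coptidis, where LIPG, an endothelial lipase, fell by 0.67 ± 0.08 (edgeR adjusted p = 1.299e-10). Of 9 other reported PPAR targets 2 rose and 2 fell in Coptidis, and 3 rose and 1 fell in Bupleuri. UCP2, a mitochondrial carrier among them, rose by 0.49 ± 0.09 in Coptidis and fell by 0.58 ± 0.08 in Bupleuri (edgeR adjusted p = 1.241e-05 and 4.688e-08).

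By group means of log2 CPM over all 25 groups, the genes most like PLIN2 among 11270 ranked included GALNT12 (Pearson r = 0.976), GNPDA1 (0.968), GK (0.967) and OSGIN1 (0.961). The genes most like ANGPTL4 were IRGQ (0.900), FOXL1 (0.898), ASB13 (0.890), TMEM44 (0.886) and AKR1C2 (0.883). For PLIN2 and ANGPTL4 themselves r was 0.169. The groups share sets and the high doses dominate the spread, so these values are descriptions. GK, glycerol kinase, changed by 0.94 in Coptidis and 1.20 in Bupleuri.

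Markers of cell types were read as a check of the label. Of 7 astrocyte markers 4 were measured above the filter: VIM (4436 CPM in vehicle), SOX9 (73.3 CPM) and SLC1A3 (33.5 CPM) lead them, while GFAP, S100B, AQP4 and ALDH1L1 stayed at or below 0.431 CPM in every library. In high-dose Coptidis SLC1A3 stood at 2.35 CPM, SOX9 at 61.2 CPM and VIM at 7943 CPM (4436 CPM in vehicle), so that the sum of the list was 8007 CPM there against 4543 CPM in vehicle. Adipocyte markers summed to 3.80 to 9.15 CPM, with ADIPOQ and LEP at 0 in vehicle. Macrophage and microglia markers summed to 151 CPM in vehicle, 275 in high-dose Coptidis and 264 in high-dose Bupleuri, almost all of it CD68 (134, 269 and 258 CPM), with C1QA at 0 in every library. PTPRC went the other way, at 13.4, 3.74 and 3.02 CPM, and CSF1R stood at 3.54, 2.36 and 3.03 CPM in the same order. CD68, also a lysosomal protein, was high in the 2 groups where PLIN2 was highest, and its part in the PLIN2 result was not tested.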

How the data were processed

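RNA was sequenced from SW1783 cells given vehicle or ethanol extracts. The authors deposited expected counts for every gene. The submitters' processing notes name RSEM 1.3.3 and STAR 2.7.3a, with FastQC 0.11.9 and Trim Galore 0.6.5, and the build hg38. The gene annotation and strand setting behind these values were not given in the sources used here. Of the deposited values 9.18% were not whole, and they were rounded. Gene positions and lengths come from GENCODE v29.

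The 54 libraries of the 21 groups with 2 or more libraries kept entered 1 fit with edgeR 4.0.16 in R 4.3.3 (TMM scaling, filterByExpr with at least 10 counts, quasi-likelihood test, Benjamini-Hochberg adjustment over 17680 genes), and 39 comparisons were made. CPM values were scaled over 58 libraries. DESeq2 1.42.0 and the other alternatives stand in the closing part. Genes outside the 10 were named by a rule: up to 3 per list, by how many of the 6 high-against-low comparisons called them, then by size. For likeness, only genes averaging 5 CPM or more were ranked. PLIN2 had been planned for tests between extracts, which are not used because it was chosen by its values over the same groups. The 10 genes and the lists were chosen with earlier results of these data known. Some genes that this rule or the likeness ranking selects are not reported here.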

Additional observations from a re-analysis of the deposited data

Results flagged for a closer look

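For 9 results the change from low to high dose differed between the 2 extracts of a set by an interaction test (edgeR adjusted p under 0.05), with no matched dose in µg/mL. Between Coptidis and Zizyphi the log2 change was higher in Coptidis for PPARG (1.29), ACADVL (0.42), PPARA (0.31) and CPT1A (0.25), and lower in Coptidis for PDK4 (-1.75), SLC25A20 (-1.54) and HILPDA (-0.53). Between Bupleuri and Aconiti it was higher in Bupleuri for PPARG (0.56) and CPT1A (0.50). With both divergent libraries kept, the Coptidis and Zizyphi difference was not called for HILPDA (edgeR adjusted p = 0.1576), CPT1A (0.1038), ACADVL (0.1093) or PPARA (0.2406). Leaving out 1 library also ended the call for HILPDA (0.07242 without Coptidis high-dose replicate 2, 0.05882 without Coptidis low-dose replicate 3 and 0.06305 without Zizyphi high-dose replicate 3) and CPT1A (0.05028 without Coptidis low-dose replicate 2).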

How the results depend on the processing

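With both divergent libraries kept, the number of members called between high and low dose fell to 1 in Citri (4 as reported), 0 in Cimicifugae (4) and, between high and medium dose, 0 in Yijung-tang (3), and the PLIN2 dose change in Bupleuri less that in Aconiti was 1.78 (1.85 as reported). The same setting lowered the count over all genes to 7749 in Coptidis, 27 in Zizyphi, 188 in Citri, 109 in Cimicifugae, 2361 in Bupleuri and 1566 in Aconiti, against 11599, 1308, 2435, 1890, 6926 and 1685. Against vehicle it ended 40 calls, 14 of them of ACADVL. It moved ANGPTL4 in Aconiti from 1.64 to 1.99. Fitting only the extracts compared gave 381 genes in Zizyphi and 1147 in Cimicifugae. With 1 replicate left out, the number of members called in Citri ran from 2 to 4, the 2 coming without Citri low-dose replicate 3, and PLIN2 in high-dose Zizyphi against vehicle ran from -0.066 to 0.034 (-0.02 as reported), turning its sign without high-dose replicate 2. The PLIN2 dose change in Coptidis less that in Zizyphi ran from 1.86 to 1.965, lowest without Zizyphi high-dose replicate 2. Other calls that some setting did not give include PPARG in Citri (edgeR adjusted p = 0.3558 without Citri low-dose replicate 3), PPARD in Coptidis (0.05102 with DESeq2), CPT1A between Citri and Cimicifugae (0.1049 without the filter on low counts), ACADVL in Citri (0.05255 without Citri low-dose replicate 3), PPARA in Coptidis at medium dose (0.5754 with both divergent libraries kept), and CPT1A and PPARA in Aconiti (0.07666 and 0.1015 with 1 high-dose replicate left out). Leaving out a replicate of a 2-library group assumes that the lone library varies like the others. Same-numbered libraries of a set deviated together little (median r from -0.0179 to 0.067), which does not exclude pairing by number. In set 12 the median r was 0.0296 for the same number and -0.0158 for different numbers. A fit with the replicate block gave PLIN2 2.10 in Coptidis and left all 60 high-against-low results as they were. Elsewhere the block moved only PPARD over the threshold, losing its call in medium-dose Coptidis against vehicle (edgeR adjusted p = 0.06023) and, nested in set, gaining one between medium and low Coptidis (0.04472) and between Coptidis and Zizyphi (0.04862). Depth limits PDK4 most, with as few as 12 counts in a library.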
